A study of Mus musculus with 6 samples.

Results

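The genes described here are 8 connexin genes, Gja1, Gja4, Gja5, Gjb1, Gjb2, Gjb6, Gjc3 and Gjd2, and the pannexin gene Panx1. They were taken by their symbols, as 9 of the 14824 genes listed in the deposited table of mouse primary somatosensory (S1) cortex. With all 6 libraries, 8 of these passed the filter on low counts and were tested, and Gja5 was too low to be tested. The set was chosen by name with its counts in these NS and WS libraries already known, the low Gja1 count of NS replicate 3 among them, so the differences are given as a description.

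The RNA came from whole S1 tissue of wild-type (WT) C57B6 mice (male C57BL/6 in the methods) at postnatal day 21 and was sequenced in bulk. In the 3 libraries named WS, the whiskers on one side had been brushed every day for 8 days, and tissue was collected 90 minutes after the last stimulation. The 3 libraries named NS are labelled as without treatment, and the study describes NS as the cortex of the side that was not stimulated. The groups shared genotype, strain and age, and no allele or agent was added in either. The sources do not name which NS and WS libraries came from the same animal, so p-values measure the spread between these libraries.

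Connexins assemble into channels that join the cytoplasm of neighbouring cells at gap junctions, through which ions, second messengers and metabolites such as glucose and lactate pass. In the cortex, each cell class uses its own connexins. Astrocytes are coupled by Cx43 (Gja1) and Cx30 (Gjb6), oligodendrocytes and myelin use Cx32 (Gjb1) and Cx29 (Gjc3), among others, electrical synapses between interneurons are made of Cx36 (Gjd2), and vessel walls use Cx37 (Gja4) and Cx40 (Gja5). Pannexin 1 (Panx1) forms large-pore channels in single membranes that release ATP.

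The recovered counts summed to between 15660395 and 17276168 per library, and 13747 genes were tested by edgeR (quasi-likelihood) with p-values adjusted after Benjamini and Hochberg. With an adjusted p below 0.05 and a log2 fold change past 1 in either direction required, 4 genes were called higher in WS (Slc16a1, Slc16a7, Vegfa and Emb) and 0 lower, which is 0.0291% of the genes tested. All measured markers of astrocytes, oligodendrocytes, endothelial cells, neurons and microglia had counts in every library. The summed markers of choroid plexus, a tissue next to but outside the cortex, ran from 304 CPM in WS replicate 1 to 1012 CPM in WS replicate 2. CPM are counts scaled to a common library size after TMM normalization.

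Of the 8 connexin and pannexin genes tested, 0 were called in either direction, beside 0.0291% of all genes. By edgeR 0 had an unadjusted p under 0.05, beside 1.19% of all genes (0.866% higher and 0.327% lower in WS), and DESeq2 also called 0. With the replicate number as a block, Gja1 and Gjb1 had an unadjusted p under 0.05, 2 of the 8 members beside 1.77% of all genes. After adjustment 0 passed. The block fit included the low Gja1 count of NS replicate 3. Without that library, and without the block, the log2 fold change of Gja1 was 0.08 (SE 0.11). The fitted change was above 0 for 7 and below 0 for 1, with log2 fold changes from -0.12 to 0.59 around a median of 0.13, whereas 53.0% of all genes were above 0 and their median was 0.01. This tally rested on single libraries, with 5 of 9 above 0 (median 0.08) without NS replicate 3, 5 of 8 (median 0.05) without WS replicate 3 and 8 of 9 (median 0.20) without NS replicate 2. The tallies of 9 include Gja5, which passed the filter in those fits. The WS and NS libraries overlapped in all 9 members, while in 3.11% of all genes tested every WS library lay above every NS library and in 3.16% every one lay below. The 95% interval of the log2 change included 0 for all 8 genes, and for 7 of them it stayed within 1 in either direction. The exception was Gja1, with an interval from -0.53 to 1.71.

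**Figure D1:**
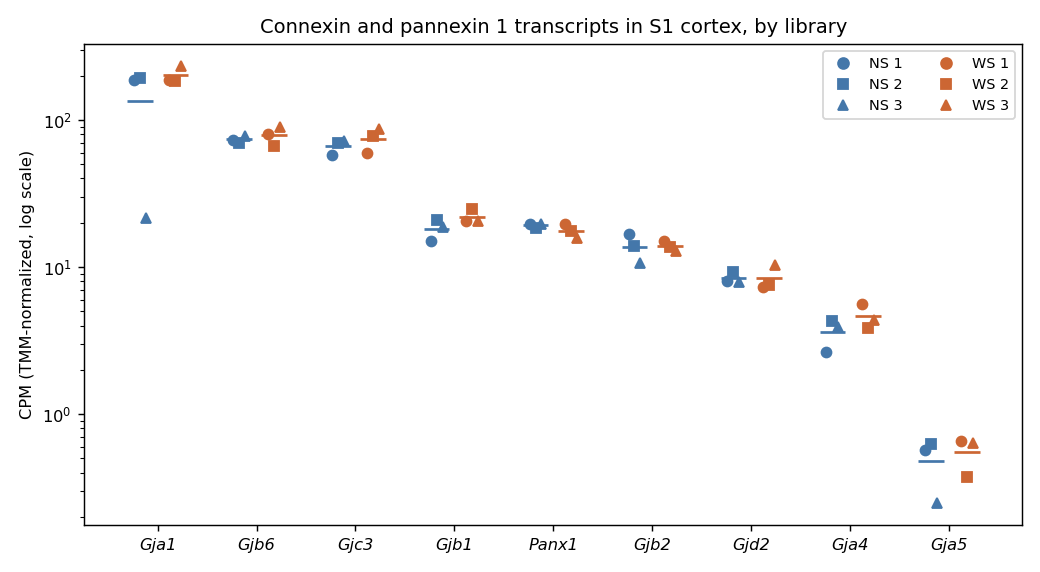
Level of each of the 9 genes in each library, as CPM on a log axis, with NS libraries in blue and WS libraries in orange, marker shapes for replicates 1 to 3 and a horizontal bar for the group mean. NS and WS libraries overlap for every gene, and the single point far from its group is Gja1 in NS replicate 3, at 21.6 CPM.

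Gja1 encodes Cx43, the most widely used astrocyte connexin. It lies on the plus strand of chromosome 10 (GRCm38, chr10:56377330-56402513). Its recovered counts were 2967, 3091 and 347 in NS replicates 1, 2 and 3, and 3173, 2953 and 3688 in WS replicates 1, 2 and 3. Thus 5 libraries lay between 183 and 233 CPM, while NS replicate 3 stood alone at 21.6 CPM, 11% of the mean of the other 5. With all 6 libraries the log2 fold change was 0.59 (SE 0.51, adjusted p = 0.9998), and without NS replicate 3 it was 0.08 (SE 0.11). The NS mean was 134 ± 97.3 CPM (SD, n = 3) and the WS mean 201 ± 27.6 CPM (SD, n = 3). Without NS replicate 3 the NS mean was 190.0 CPM, so the higher WS mean of Gja1 rested on that 1 NS library.

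The low Gja1 value did not come with low values of other astrocyte genes. The 12 astrocyte markers, which include the glutamate transporters Slc1a2 and Slc1a3 and the water channel Aqp4, summed to 7568, 7681 and 7312 CPM in NS and to 7962, 7333 and 8754 CPM in WS. In NS replicate 3 each of these markers lay within -0.17 to 0.05 of its own mean over the 6 libraries on the log2 scale, whereas Gja1 lay at -2.65. Gja1 amounted to 0.295% of the summed markers in that library and to between 2.36% and 2.66% in the other 5. Against the median of the other 5 libraries Gja1 was lower by a log2 value of -3.11 in NS replicate 3, and only 3 of 10875 genes averaging 100 counts or more were more than 4-fold lower there. The other 2 were Hbb-b1, a beta globin gene of red blood cells, and Ppp1ccb. Hbb-b1 was also more than 4-fold lower in NS replicate 1 and in WS replicate 1. The other 5 libraries each held 1 to 6 such genes. The recovered counts of Gja1 summed to 16219, as did 6 times its deposited mean, with a rounding uncertainty of 0.593 counts per library. No annotated pseudogene of the family was found in GENCODE M21 under a connexin or pannexin name. What set the Gja1 value of this library was not tested.

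**Figure D2:**
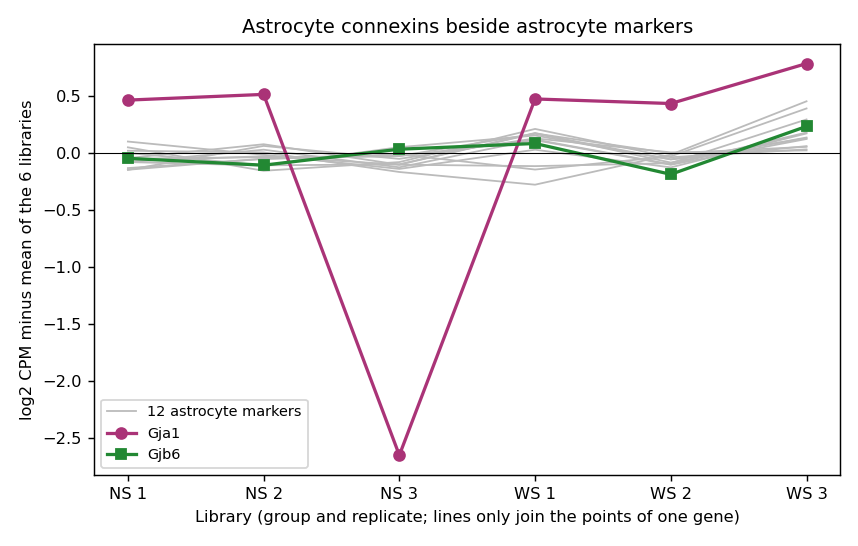
Log2 CPM minus the mean of the 6 libraries for Gja1, Gjb6 and the 12 astrocyte markers (grey), by library, with lines only joining the points of a gene. Gja1 falls to -2.65 in NS replicate 3, while Gjb6 stays at 0.03 and the markers between -0.17 and 0.05 there.

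The sequence just upstream of the Gja1 start site is shown because the study sampled tissue 90 minutes after a sensory stimulus, a time at which AP-1 factors such as Fos are commonly induced. It is the 250 bases before the RefSeq start (GRCm38.p6, chr10:56377050-56377299, plus strand), with the AP-1 motif TGAGTCA in capitals, searched on both strands.

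Gja1: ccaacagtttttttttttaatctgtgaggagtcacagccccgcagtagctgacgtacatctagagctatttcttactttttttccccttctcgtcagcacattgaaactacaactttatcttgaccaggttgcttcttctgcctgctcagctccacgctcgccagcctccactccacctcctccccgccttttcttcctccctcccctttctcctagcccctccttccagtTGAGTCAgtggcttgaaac

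The 1 match begins 19 bases before the start site. Such a match was present in 4.46% of 32851 promoters of the same length, and in none of the other members' windows. It is a match of letters, and binding was not measured. Gja1 itself differed by 0.08 (SE 0.11) on the log2 scale without NS replicate 3, less than its standard error.

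Gjb6 and Gjb2 are neighbours on the minus strand of chromosome 14, at chr14:57123303-57133611 and chr14:57098600-57104702, with 18600 bases between them. Gjb6 encodes Cx30, the second connexin of cortical astrocytes. It was measured at 73.5, 70.1 and 77.6 CPM in NS and at 80.4, 66.7 and 88.9 CPM in WS. The WS libraries lay on both sides of the NS libraries, and the log2 fold change was 0.09 (SE 0.10, adjusted p = 0.9998). Gjb6 followed the astrocyte markers, at between 0.909% and 1.06% of their sum in all 6 libraries. Relative to that sum its log2 difference between WS and NS was 0.00, and its SD over the 6 libraries was 0.15 for the level and 0.09 for the ratio.

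The count ratio of Gja1 to Gjb6, both astrocyte connexins, ran from 2.34 to 2.75 in 5 libraries and was 0.278 in NS replicate 3. This ratio compares reads, not molecules, because the transcripts differ in length.

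Gjb2 encodes Cx26, which is found in astrocytes and in the leptomeninges that cover the cortex. Its levels were 16.7, 13.8 and 10.7 CPM in NS and 15.1, 13.7 and 12.9 CPM in WS, so all WS libraries fell inside the NS range. The log2 fold change was 0.02 (SE 0.15). Without NS replicate 3, its lowest library, the value was -0.13 (SE 0.14). Gjb2 was 4.42% to 6.0% of the summed CPM of 11 leptomeningeal fibroblast markers, which include the collagens Col1a1 and Col1a2, and 0.146% to 0.221% of the astrocyte marker sum. Its SD over the 6 libraries was 0.22 for the log2 level, 0.19 relative to the leptomeningeal markers and 0.23 relative to the astrocyte markers. The leptomeningeal marker sum was 278, 232 and 227 CPM in NS and 272, 309 and 218 CPM in WS, and 10 of its 11 genes had a value above 0 (median log2 fold change 0.16), 0 of them with an adjusted p under 0.05. Here too single libraries decided, with 6 of 11 above 0 (median 0.02) without NS replicate 3 and 11 of 11 (median 0.40) without NS replicate 1. NS replicate 3, where Gja1 was lowest too, was the lowest library for 8 of the 11 markers. Their median there was -0.42 from their own means on the log2 scale. Whether this bears on Gja1 was not tested.

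Both oligodendrocyte connexins among the members were lowest in NS replicate 1. Gjb1 (Cx32, chrX:101376378-101385629, plus strand), which links layers of myelin and couples oligodendrocytes, was at 14.9, 21.0 and 18.6 CPM in NS and at 20.6, 24.7 and 20.5 CPM in WS. Its lowest library was NS replicate 1 and its highest WS replicate 2, and only NS replicate 2 kept the groups from separating. The log2 fold change was 0.27 (SE 0.13, unadjusted p = 0.0646, adjusted p = 0.9998).

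Gjc3 (Cx29, chr5:137953461-137963098, minus strand), a connexin of myelinating glia and their precursors, was at 57.9, 70.1 and 72.1 CPM in NS and at 59.4, 77.7 and 86.8 CPM in WS. It was low in replicate 1 of both groups and its log2 fold change was 0.16 (SE 0.13).

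Myelin genes moved with these connexins. The 12 oligodendrocyte markers, which include the myelin proteins Mbp, Mog and Mag, summed to 8883, 12706 and 12022 CPM in NS and to 10486, 13938 and 14089 CPM in WS. All 12 had a log2 fold change above 0, their median being 0.19, and 0 had an adjusted p under 0.05. With the replicate number as a block, 5 of the 12 had an unadjusted p under 0.05, beside 1.77% of all genes. Without the block 0 did, and after adjustment 0 passed in either fit. NS replicate 1 was the lowest library for 10 of the 12 and for Gjb1 and Gjc3. Relative to the marker sum, the log2 difference between WS and NS was 0.08 for Gjb1 and -0.05 for Gjc3. In this whole-tissue RNA, more cells of a type and more RNA per cell cannot be told apart. Without NS replicate 1 the log2 change was 0.15 for Gjb1 and 0.07 for the median of the 12 markers, and without WS replicate 1 that median was 0.32.

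The match between the connexins and the myelin markers was not the same in every library. In WS replicate 1 the marker sum and Gjc3 were low, while Gjb1 was near its mean. Gjb1 was accordingly 0.197% of the marker sum in that library and 0.146% to 0.177% in the other 5. The SD over the 6 libraries dropped from 0.24 for the log2 level to 0.15 for the ratio in Gjb1 and from 0.22 to 0.09 in Gjc3. The ratio of Gjb1 to Gjc3 counts ran from 0.237 to 0.347.

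**Figure D3:**
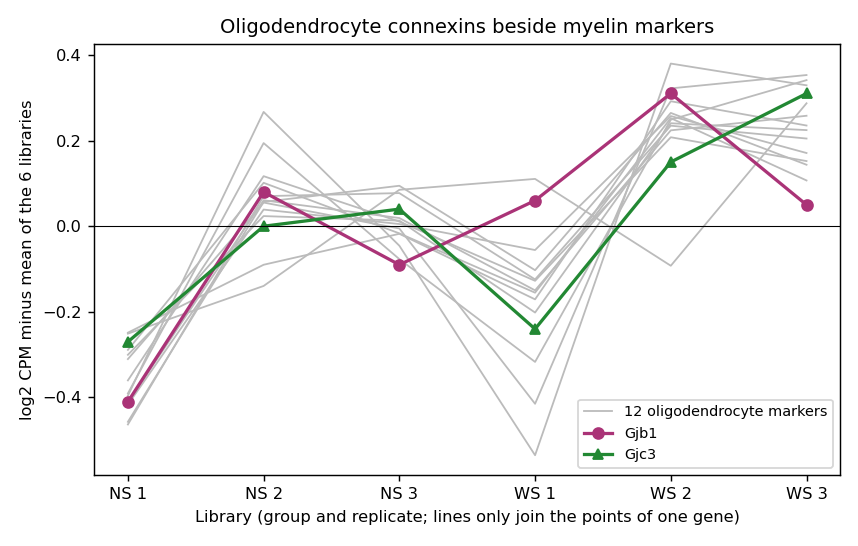
Log2 CPM minus the mean of the 6 libraries for Gjb1, Gjc3 and the 12 oligodendrocyte markers (grey), by library, with lines only joining the points of a gene. Both connexins are lowest in NS replicate 1, and Gjc3 is also low in WS replicate 1, at -0.24, as are most of the markers.

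The upstream sequences of Gjb1 and Gjc3 are shown because both members were lowest in the library with the lowest myelin markers and the myelin programme is driven by the factor SOX10. Each line gives the 250 bases before a RefSeq start site (GRCm38.p6), for Gjb1 the most downstream of 4 start sites (chrX:101383482-101383731, plus strand) and for Gjc3 its single one (chr5:137963099-137963348, minus strand). Capitals mark the SOX core motifs ACAAAG and ACAATG on either strand.

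Gjb1: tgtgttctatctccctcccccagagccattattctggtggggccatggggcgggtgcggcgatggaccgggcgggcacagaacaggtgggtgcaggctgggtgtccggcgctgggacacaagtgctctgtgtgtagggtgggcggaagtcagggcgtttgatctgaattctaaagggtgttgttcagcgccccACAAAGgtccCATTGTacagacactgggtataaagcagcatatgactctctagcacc

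Gjc3: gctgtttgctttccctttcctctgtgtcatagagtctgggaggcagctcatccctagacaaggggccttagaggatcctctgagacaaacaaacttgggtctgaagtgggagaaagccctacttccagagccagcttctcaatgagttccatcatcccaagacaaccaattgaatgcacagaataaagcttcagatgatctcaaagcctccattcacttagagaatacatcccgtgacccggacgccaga

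The Gjb1 window held 2 matches, beginning 57 and 47 bases before the start site and lying on opposite strands. The windows of the other 3 Gjb1 start sites held 1, 0 and 0 matches. The Gjc3 window held none, which says only that these letters were not in its 250 bases. A match was present in 25.2% of the 32851 promoters, so its presence is common.

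The neuronal connexin Gjd2 (Cx36, chr2:114009601-114013619, minus strand) forms electrical synapses, chiefly between inhibitory interneurons in cortex. It was at 8.01, 9.24 and 7.89 CPM in NS and at 7.35, 7.55 and 10.3 CPM in WS. WS held both the lowest and the highest library, and the log2 fold change was 0.00 (SE 0.16, 95% interval from -0.35 to 0.35). The summed markers of inhibitory neurons, such as the GABA-synthesis enzymes Gad1 and Gad2, were higher in each WS library than in each NS library, at 1180, 1232 and 1204 CPM in NS and 1327, 1382 and 1264 CPM in WS. Of these 8 genes 0 had an adjusted p under 0.05. Taken singly, 0 had each WS library above each NS library, beside 3.11% of all genes tested. The microglia marker sum also lay higher in each WS library, at 474, 453 and 470 CPM in NS and 491, 479 and 491 CPM in WS. Relative to this sum Gjd2 differed by a log2 value of -0.15, with overlapping groups. Gjd2 overlaps the transcript A530058N18Rik on the other strand, and since the counting is not stated to have used strand, reads of the pair cannot be told apart.

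The vascular connexins had the fewest counts of the members. Gja4 (Cx37, chr4:127311421-127314039, minus strand), a connexin of arterial endothelium and smooth muscle, had 42, 69 and 63 counts in NS and 95, 62 and 69 counts in WS. As CPM these were 2.65, 4.31 and 3.91 in NS and 5.63, 3.84 and 4.36 in WS. NS replicate 1 was the lowest and WS replicate 1 the highest, with the other 4 libraries between 3.84 and 4.36 CPM. The log2 fold change was 0.35 (SE 0.22, unadjusted p = 0.148), and it was 0.17 without NS replicate 1. Gja5 (Cx40, chr3:96904693-97077416, plus strand), a connexin of arterial endothelium, had 9, 10 and 4 counts in NS and 11, 6 and 10 counts in WS. These were too few to pass the filter with all 6 libraries. Fitted with no filter its log2 fold change was 0.20 (SE 0.43), so a small difference would not be detectable at this depth. Gja5 also overlaps 4 other annotated genes on the other strand.

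Endothelial markers were set beside Gja4. All 15 had log2 fold changes at or above 0, with a median of 0.09, and their sum was 479, 477 and 540 CPM in NS and 554, 509 and 593 CPM in WS. Pecam1, an adhesion molecule of endothelial junctions, had the largest value among them, 0.87 (SE 0.18, adjusted p = 0.8129). It passed the adjusted test, though not the fold change required, with the replicate number as a block (0.84, SE 0.13, adjusted p = 0.000948) and by DESeq2 (0.87, SE 0.18, adjusted p = 0.00217). Without WS replicate 3, 9 of the 15 markers were above 0, with a median of 0.04. The 8 measured arterial markers had a median of 0.05, and the 5 tested smooth muscle markers a median of 0.18. Of the genes in these 3 lists 0 had an adjusted p under 0.05 in the edgeR fit without the block. Relative to the sum of endothelial markers, Gja4 differed by 0.21 on the log2 scale, and relative to the arterial markers by 0.36, with the groups overlapping both times.

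Panx1 (chr9:15002128-15045478, minus strand) was the only tested member with a lower fitted value in WS. It was at 19.5, 18.5 and 19.6 CPM in NS and at 19.6, 17.6 and 15.9 CPM in WS. WS replicate 1 lay within the NS range and WS replicate 3 was the lowest. The log2 fold change was -0.12 (SE 0.11), and it was -0.05 without WS replicate 3.

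Panx2, a relative of Panx1 that is abundant in neurons and not among the members, was at 127, 124 and 111 CPM in NS and at 160, 122 and 128 CPM in WS, with a log2 fold change of 0.18 (SE 0.10). The ratio of Panx2 to Panx1 counts was 6.50, 6.71 and 5.68 in NS and 8.17, 6.91 and 8.06 in WS, so the groups did not overlap in this ratio although they did in each gene. This ratio was not tested across all gene pairs. Panx2 overlaps the antisense transcript 1810021B22Rik.

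Other connexin genes of the table were Gjc1 (Cx45), found in neurons and mural cells, at 3.60 to 5.07 CPM with a log2 fold change of -0.05 (SE 0.19), Gjd3 at 0.745 to 1.45 CPM with 0.05 (SE 0.31), and Gja6, which had 3 to 7 counts per library and failed the filter. The annotated span of Gja6 overlaps another gene, so its reads are uncertain.

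**Figure D4:**
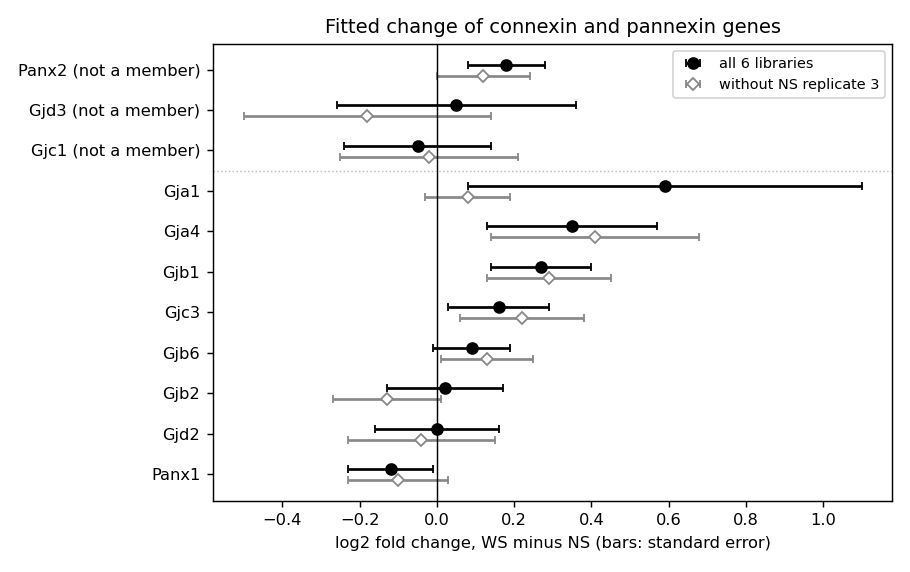
Log2 fold change (WS minus NS) with its standard error for the 8 members and 3 other family genes that passed the filter, from all 6 libraries (filled) and without NS replicate 3 (open). Gja1 moves from 0.59 to 0.08 when NS replicate 3 is left out, and Gjb2, Gjd2 and Gjd3 then take values below 0.

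Levels of different genes were compared per kilobase of the union of annotated exons (CPM per kb, mean ± SD over the 6 libraries). Panx2 had 35.7 ± 4.55 and Gjb6 28.5 ± 2.98, followed by Gja1 at 16.3 ± 7.20, Gjc3 at 16.2 ± 2.52 and Gjb1 at 11.8 ± 1.87. Below these were Gjb2 at 5.74 ± 0.846, Panx1 at 3.06 ± 0.247, Gjd2 at 2.91 ± 0.397 and Gja4 at 2.44 ± 0.573. The lowest were Gjd3 at 1.37 ± 0.287, Gjc1 at 0.885 ± 0.119, Gja6 at 0.164 ± 0.0423 and Gja5 at 0.0898 ± 0.0290. Neighbours in this order overlapped in their ranges over the libraries except at 4 steps, from Gjb6 to Gja1, from Gjb1 to Gjb2, from Gjb2 to Panx1 and from Gjc1 to Gja6. Glial connexins therefore held the upper places among the connexins, and the neuronal and vascular ones the lower.

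The place of Gja1 depended on the length used. Its union of exons spans 10257 bases and its longest annotated transcript 3889 bases. With the longest transcript of each gene, Gja1 came to 43.1 CPM per kb, above Panx2 at 37.9 and Gjb6 at 36.2. Gja1 then made up 33.9% to 37.5% of the summed connexin level in 5 libraries and 5.91% in NS replicate 3, whereas with the union of exons it made up 18.0% to 20.6% and 2.64%. Gjb6 was 22.9% to 39.3% of the sum with the longest transcript and 25.1% to 36.5% with the union of exons, highest in NS replicate 3 in both.

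Genes that work with these channels were described in 4 lists of 56 genes, of which 51 were tested. Of these 0 had an adjusted p under 0.05 and 0 an unadjusted p under 0.05 (1.19% of all genes). Among 16 scaffold and trafficking partners of gap junction plaques, 10 had a value above 0 and 6 below, with a median log2 fold change of 0.04. Hepacam, an astrocyte adhesion protein that binds Cx43, was at 116 ± 6.89 CPM in NS and 127 ± 4.52 CPM in WS (SD, n = 3 each), with a log2 fold change of 0.13 (SE 0.08). Ptprm, a receptor phosphatase, had 0.11 (SE 0.08) with each WS library above each NS library.

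Among 15 kinases and phosphatases that act on Cx43, 5 were above 0 and 10 below, with a median of -0.02. Prkca, a protein kinase C, had -0.07 (SE 0.07) and Akt1 0.07 (SE 0.07).

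Among 13 tested genes of purinergic signalling, which senses and clears the ATP that pannexin channels release, all 13 were above 0, with a median of 0.07, but 9 of 13 without NS replicate 1 and 9 of 13 without WS replicate 3. The nucleotide receptor P2ry13 had 0.11 (SE 0.10), and Nt5e, the enzyme that makes adenosine from AMP, had 0.25 (SE 0.25). The adenosine receptor Adora2a, which is abundant in striatum, had 0.56 (SE 0.63) and rested on WS replicate 2, at 20.9 CPM against 2.71 to 8.24 CPM in the other 5 libraries. Without that library its value was -0.99. Among 7 tested genes of other large-pore channels, 5 were above 0 and 2 below, with a median of 0.05. The volume-regulated channel subunit Lrrc8a had 0.15 (SE 0.08) with each WS library above each NS library, Lrrc8b had -0.07 (SE 0.08) and Lrrc8c 0.07 (SE 0.09).

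The genes whose centred log2 levels were closest to each member over the 6 libraries were found among 11999 genes averaging 50 counts or more. Closeness was the root mean square (RMS) of the differences, and with 6 libraries and so many genes a close pattern is not a finding by itself. For Gja1, whose own SD over the libraries was 1.3, the nearest were Ppp1ccb (RMS 0.524) and Hgf (RMS 0.838). These RMS values were larger than those of the other members. For Gjb1 they were Gprc5c (RMS 0.036) and Trmt13 (RMS 0.039), and for Gjc3 Akap8 (RMS 0.042) and Tspan2 (RMS 0.046), a tetraspanin of oligodendrocytes. Gjb6 was nearest to Parva (RMS 0.033) and Trmt5 (RMS 0.039), and Gjb2 to Trim65 (RMS 0.040) and Col23a1 (RMS 0.049). Gjd2 was nearest to Tulp4 and Wwtr1, Gja4 to Mocs1 and Lad1, and Panx1 to Ppp1r11 and Rsph3b, at RMS values from 0.023 to 0.117.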

How the data were processed

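RNA-seq was measured in 3 NS and 3 WS libraries of S1 cortex, grouped by their sample titles. According to the methods, the authors accepted RNA with a RIN above 2, discarded reads of rRNA and of low quality and used HISAT2 for alignment. The build is mm10 per the submitters' processing notes, and the counting tool and its use of strand are not given in the sources used here. For each gene the authors deposited an estimated count, as the mean over the 6 libraries, its SD (in count units, a signal not scaled for depth) and a z-score per library. The authors made each z score, deposited per library, by subtracting the gene's mean from the library's count and dividing by the SD. The column of WS replicate 3 carries an added letter in its name, and was taken as that library because the authors' WS mean includes it. The deposited columns of the authors' own comparisons (fold changes, p-values, FDR), and a second table that holds only such columns, were not used.

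Counts were computed back as mean plus z-score multiplied by SD and rounded. In 13430 genes with under 0.1 count of rounding error, 88.2% of values were whole within that error, against 4.39% by chance. The design had been written for counts, which were recovered in this way. No pair of libraries agreed within sampling noise (lowest chi-square 4.49 per degree of freedom). Tests used edgeR 4.0.16 (TMM, filterByExpr, quasi-likelihood, Benjamini-Hochberg) in R 4.3.3, with DESeq2 1.42.0 as an alternative, and were tested on simulated counts. Calls needed an adjusted p below 0.05 and a log2 fold change past 1 in either direction. Python 3.11.15, SciPy 1.17.1 and matplotlib 3.10.9 were used. An exact permutation test of 3 against 3 libraries cannot go below p = 0.1 and was not used for calls. Same-numbered NS and WS libraries deviated together (r = 0.34, 0.23 and 0.12 over 13688 genes, all other pairs at most 0.036), so the replicate numbers in the titles were also fitted as a block. Groups of 3 libraries limit the precision, with a biological coefficient of variation of 10.1%.

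Positions and lengths came from GENCODE M21 (GRCm38), which gave a length for 99.8% of genes. Promoters came from the RefSeq table, which held all 9 members. The members and all lists were chosen with earlier results of these data known. Named genes are the 9 members, other family genes in the table, the 3 smallest p-values of each list, the 2 nearest patterns of each member, and genes called or singled out beside a result. Some genes that these rules name are not reported here. Hbb-b1 and genes of the marker lists named as examples were added after their values were seen. Alternatives were other normalizations, filters, tests and thresholds, the block, each library left out, and another gene length.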

Additional observations from a re-analysis of the deposited data

How the results depend on the processing

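In all alternatives run, 0 connexin or pannexin genes were called. With each library left out in turn, genes called higher ranged from 0 (without NS replicate 2, and without NS replicate 3) to 6 (without WS replicate 1), and genes called lower from 0 to 1 (without WS replicate 3). An unadjusted p under 0.05 with an absolute log2 fold change above 1 gave 13 genes higher and 2 lower. With the replicate block 6 genes were called higher and 0 lower, and the block changed no call among the family and list genes. Pecam1 then had an adjusted p under 0.05, but its log2 fold change of 0.84 was below the 1 required. With the block Gja1 had a log2 fold change of 0.94 (SE 0.35, unadjusted p = 0.0115, adjusted p = 0.9999) and Gjb1 0.28 (SE 0.12, unadjusted p = 0.0260). Thus 2 of 8 members had an unadjusted p under 0.05, beside 1.77% of all genes in that fit. It included NS replicate 3, and Gja1 was at 0.08 (SE 0.11) without that library and without the block.

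Leaving out single libraries moved Gja1 between 0.08 (without NS replicate 3) and 0.95 (without NS replicate 2). The sign changed under 2 of 13 alternatives for Gjb2, 1 for Gjb6, 5 for Gjd2, 2 for Gjc1 and 2 for Gjd3. Of 741 values over 57 named genes and 13 alternatives, 739 stayed on the same side of the threshold and within the spread. The exceptions were Adora2a, at -0.99 without WS replicate 2, and Pecam1, which was called at 1.08 without WS replicate 1 (adjusted p = 0.00542). With single libraries left out, list medians ranged from 0.00 to 0.07 for the scaffold partners, -0.06 to 0.02 for the kinases, 0.05 to 0.14 for the purinergic genes, 0.00 to 0.08 for the large-pore channels, 0.01 to 0.09 for the arterial and 0.08 to 0.27 for the smooth muscle markers. Depth limits Gja5, Gja6 and Gjd3, whose counts were few in every library, and each group held only 3 libraries.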

Other observations

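Several marker lists of other cell types also had more genes above 0 than below. Among 12 astrocyte markers all 12 were above 0, with a median log2 fold change of 0.13, but 8 of 12 (median 0.08) without WS replicate 3. Ntsr2 was at 0.16 (SE 0.08) and Atp1b2, a sodium pump subunit, at 0.14 (SE 0.08) with each WS library above each NS library. Among 7 oligodendrocyte precursor markers 6 were above 0, with a median of 0.11, but 5 of 7 (median 0.07) without NS replicate 3 or WS replicate 3, and the transcription factor Olig1 had 0.22 (SE 0.09, unadjusted p = 0.0284, adjusted p = 0.9998). Excitatory neuron markers did not share this direction, with 3 above 0 and 5 below and a median of -0.01. Fezf2, a factor of deep-layer neurons, had -0.18 (SE 0.09) with each WS library below each NS library, and Rorb, a factor of layer-IV neurons, had 0.13 (SE 0.09) with each WS library above each NS library. Microglia markers had 7 above 0 and 1 below, with a median of 0.10. Choroid plexus markers had 3 above 0 and 6 below, with a median of -0.09, but all 9 were above 0 without NS replicate 3 (median 0.27) and without WS replicate 1 (median 0.34), and 1 of 9 without WS replicate 2 (median -0.91). In each of these lists 0 genes had an adjusted p under 0.05 by edgeR, and the median over all genes was 0.01.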
